A study of Rattus norvegicus with 3 samples.

Results

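A set of 10 genes of the growing axon was followed through the transcriptome of the rat motor cortex. They encode the growth-cone membrane proteins Gap43 and Basp1, the stathmins Stmn1, Stmn2, Stmn3 and Stmn4, and the collapsin response mediator proteins (CRMPs) Dpysl2, Dpysl3, Dpysl5 and Crmp1. The 10 members were taken by exact gene name, and each matched 1 of the 30957 genes listed. The set was assembled for its relation to axon sprouting after stroke. All 3 libraries came from male Sprague-Dawley rats, numbered 12, 24-4 and 33, that had cerebral ischemia and reperfusion, in which the brain loses its blood supply and regains it, and received electroacupuncture at GB20, the Fengchi point on the neck. The labels give a time of 8 weeks without its starting point and say neither how ischemia was induced nor which side of the brain was sampled. Each rat gave 1 library of motor cortex. There was 1 group, so the data give levels and their spread between treated rats, and an effect of ischemia or of electroacupuncture cannot be read from them.

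An axon grows at its tip, the growth cone, where membrane signals are passed to actin and to microtubules. GAP-43 and BASP1 lie on the inner face of the growth-cone membrane and are substrates of protein kinase C. Stathmins bind tubulin dimers and hold them back from microtubules until phosphorylation releases them, and CRMPs bind tubulin and carry the repulsive signal of semaphorin 3A to the cytoskeleton. Most of these genes are known for high expression while axons form, and several keep expression in the adult cortex.

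Values were FPKM (fragments scaled to 1 kb of gene and to 1000000 fragments of library), which allow genes of unequal length to be set side by side. Estimated depths were 13010000 to 17250000 fragments per library. At the lowest member level, the Dpysl5 FPKM of 1.14 in rat 12, a gene of 1 kb would rest on 17.5 fragments (exact 95% Poisson interval 10.7 to 28.4, counting error only). The mitochondrial genome took 14.4% to 26.6% of all FPKM. All 8 neuron markers used to check the tissue were above 0 in every rat, and their summed FPKM was 2366, 1232 and 1073 in rats 12, 24-4 and 33. Oligodendrocyte markers had the opposite order, with sums of 5323, 6965 and 12114, and choroid plexus markers had 3324, 129 and 13115. Of the 6 choroid plexus markers, 4 were among the 14 genes, 0.102% of those tested, called variable between rats in the test below. The dentate gyrus markers C1ql2 and Prox1 had 0.859, 8.79 and 12.7, and 2.84, 2.35 and 6.86. In bulk tissue, fewer cells of a type, less RNA per cell and a difference in the tissue taken cannot be told apart. The part of these differences in the results was not tested.

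The members covered a wide range of levels, with 7 of 10 at high FPKM and 3 below them in a fixed order. Stmn1, Stmn4, Dpysl2, Stmn3, Stmn2, Gap43 and Basp1 formed the upper tier, with means from 133 to 255. Crmp1 was the eighth in each rat at 71.0 ± 23.8 (SD, n = 3 rats, as for every mean given), Dpysl3 the ninth at 10.1 ± 3.17 and Dpysl5 the tenth at 1.45 ± 0.382. Tests covered the 13754 genes whose mean FPKM reached 1, and among these the level of Stmn1 exceeded 98.6%, that of Basp1 96.7% and that of Crmp1 92.7%. Dpysl3 exceeded 48.8% of them and Dpysl5 5.08%. Together the members summed to 1356, 1631 and 1183 FPKM in rats 12, 24-4 and 33, or 0.285%, 0.351% and 0.242% of all FPKM.

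**Figure D1:**
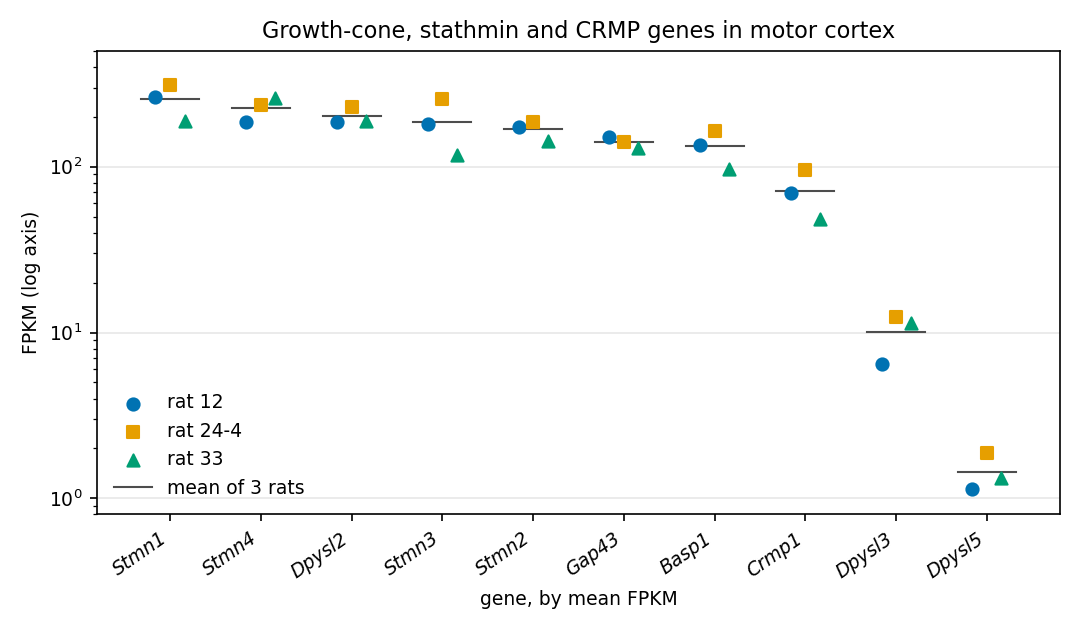
FPKM (log axis) of the 10 genes in each rat, ordered by mean. Points are single rats and bars the mean of 3 rats. The 7 leftmost genes have means from 133 to 255, whereas Dpysl3 and Dpysl5 have means of 10.1 and 1.45.

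The growth-cone membrane genes were expressed at nearly the same level. Gap43, whose product binds calmodulin and is released from it by protein kinase C, had an FPKM of 150.5, 140.1 and 129 in rats 12, 24-4 and 33. These values lie close together, with the highest 1.17 times the lowest, and only 7.01% of tested genes had a smaller ratio. That ratio is for the values as deposited. Leaving out the mitochondrial genome shifted the median of all genes by a log2 of 0.41, 0.20 and 0.31 in rats 12, 24-4 and 33. Rescaling by the median ratio to the gene means shifted that median by 0.08, 0.02 and -0.06. Both scalings thus widen the Gap43 ratio, because rat 12 is highest and is shifted upward most in each. Basp1, which encodes a myristoylated protein of the same membrane domains, had 136, 165 and 96.7, so rat 24-4 was highest and rat 33 lowest. Gap43 was above Basp1 in rats 12 and 33 and below it in rat 24-4. On the log2(FPKM + 1) scale the difference of Gap43 minus Basp1 was 0.14, -0.23 and 0.41, with a mean of 0.11 ± 0.32 (exact sign-flip test, two-sided, p = 0.75). Without rat 33 the mean difference became -0.05, and without rat 24-4 it was 0.28. The sign thus differed between rats. With 3 rats the smallest p this test allows is 0.25, so no difference in the text could pass 0.05.

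Among the stathmins, Stmn1 was highest in rats 12 and 24-4 and Stmn4 in rat 33. Stmn1, the cytosolic stathmin that is also found in dividing cells, had an FPKM of 263, 312 and 189 in rats 12, 24-4 and 33. Markers of cycling cells summed to 28.5, 35.3 and 51.8, of which Pcna alone gave 26.0, 31.1 and 43.8. Their sum was highest in rat 33, which was the highest in 42.0% of all tested genes. The part of dividing cells in the Stmn1 values was not tested. Stmn2, a membrane-anchored stathmin of neurons, had 174, 186 and 143. It was below Stmn1 in 3 of 3 rats, with a log2 difference of -0.58 ± 0.17 (exact sign-flip p = 0.25).

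Stmn3, another membrane-attached neuronal stathmin, had 181, 256 and 117, and rats 24-4 and 33 stood well apart. With a ratio of 2.19, Stmn3 was the only member whose highest rat reached 2 times its lowest, 1 of 10 against 30.0% of tested genes and 21.0% of those whose mean FPKM reached 10. No member reached that ratio once rat 24-4 or rat 33 was left out, when the share of all tested genes was 19.6% and 10.5%. Crmp1 joined Stmn3 when values were rescaled by their median ratio to the gene means, with 29.5% of all tested genes. Stmn3 minus Stmn2 was 0.06, 0.46 and -0.29 on the log2 scale (mean 0.08 ± 0.37, exact sign-flip p = 0.75), with -0.12 without rat 24-4 and 0.26 without rat 33, so its sign rests on rat 24-4.

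Stmn4, the stathmin also called RB3, differed from its relatives in the order of the rats. It had 187, 234 and 259 in rats 12, 24-4 and 33, where the other 3 stathmins were lowest in rat 33. Rat 33 was the highest in 42.0% of all tested genes. It was also highest in 6 of 6 oligodendrocyte, 6 of 6 microglia, 6 of 6 choroid plexus, 4 of 6 astrocyte and 4 of 4 tested cycling-cell markers. Their part in the Stmn4 values was not tested. Stmn4 exceeded Stmn2 in 3 of 3 rats, by 0.10, 0.33 and 0.86 on the log2 scale (mean 0.43 ± 0.39, exact sign-flip p = 0.25). Without rat 33 the mean was 0.22.

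The 4 stathmins summed to 805, 988 and 708 FPKM, and their shares of that sum moved between rats. Stmn2 kept the steadiest share, at 20.2% ± 1.41. Stmn1 took 30.3% ± 3.17 and Stmn3 21.6% ± 4.77. The share of Stmn4 was 23.2% in rat 12, 23.7% in rat 24-4 and 36.6% in rat 33.

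CRMP transcripts were dominated by Dpysl2, which encodes CRMP2, a tubulin-binding protein that promotes axon formation and is switched off by phosphorylation through Cdk5 and Gsk3b. Dpysl2 had an FPKM of 187, 229 and 188 in rats 12, 24-4 and 33, so rats 12 and 33 were nearly equal. Crmp1, a partner of CRMP2 in the semaphorin 3A response, had 69.2, 95.6 and 48.2, with rat 24-4 highest and rat 33 lowest. Dpysl2 exceeded Crmp1 in 3 of 3 rats by 1.42, 1.25 and 1.95 on the log2 scale (mean 1.54 ± 0.36, exact sign-flip p = 0.25).

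Dpysl3, which encodes CRMP4, had an FPKM of 6.48, 12.4 and 11.4, and rat 12 lay below the others. The log2 difference of Dpysl2 minus Dpysl3 was 4.23 ± 0.37. Dpysl5, the gene of CRMP5, a protein best known from the developing nervous system, had 1.14, 1.88 and 1.33 and stayed below 2 in every rat. Dpysl2 minus Dpysl5 was 6.45, 6.32 and 6.34 (mean 6.37 ± 0.07, exact sign-flip p = 0.25). On this scale the distance to a gene as low as Dpysl5 is understated, and it was 7.04 ± 0.19 with a pseudocount of 0.1.

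With Dpysl4 (CRMP3) added, which is no member and had 28.6, 33.9 and 24.5, the CRMP genes summed to 292, 373 and 274 FPKM. Of this sum Dpysl2 took 64.7% ± 3.76 and Crmp1 22.3% ± 4.21. Dpysl4 followed with 9.27% ± 0.454, Dpysl3 with 3.24% ± 0.978 and Dpysl5 with 0.460% ± 0.0606. The order Dpysl2, Crmp1, Dpysl4, Dpysl3, Dpysl5 was the same in the 3 rats.

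**Figure D2:**
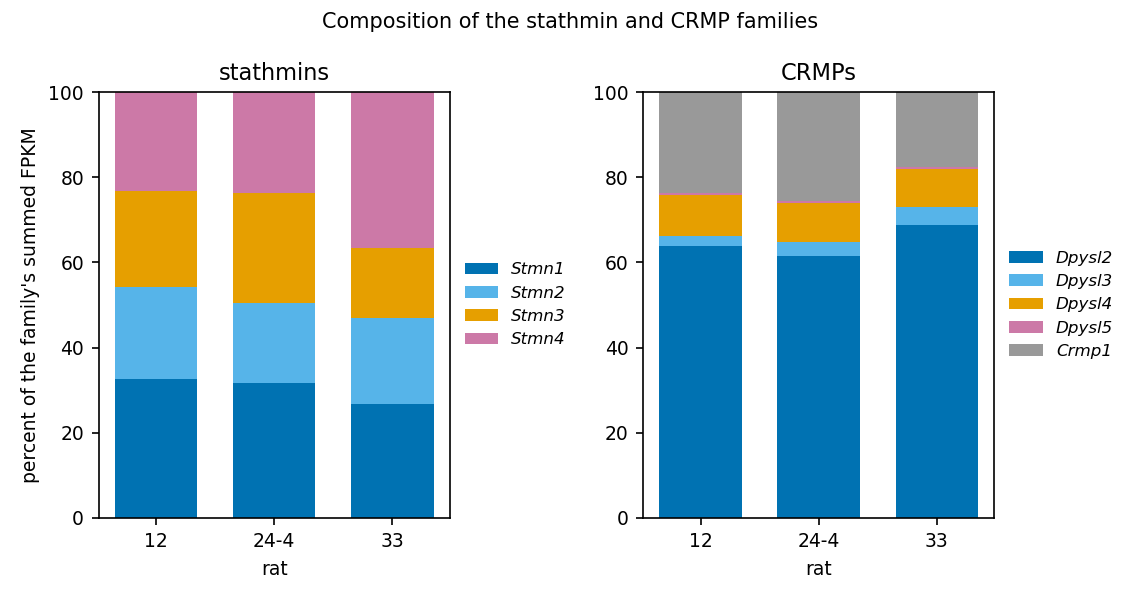
Share of each gene in the summed FPKM of its family, in percent, for each rat (stathmins left, CRMPs right). Stmn4 takes 23.2% in rat 12 and 36.6% in rat 33, and Dpysl2 takes 61.4% to 68.8% of the CRMP sum.

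Neighbours in the order of mean levels often could not be separated. Of the 9 neighbouring pairs, 5 kept 1 sign in the 3 rats. Crmp1 lay below Basp1 by 0.91 ± 0.12 and above Dpysl3 by 2.69 ± 0.64 on the log2(FPKM + 1) scale, and Dpysl3 above Dpysl5 by 2.14 ± 0.31. Each of these gaps exceeds its SD between rats. The tiers were drawn from these same levels, so the gaps are no separate support for them. In rat 33 the upper tier itself ran from 259 (Stmn4) to 96.7 (Basp1), a wider range than the step down to Crmp1 at 48.2. Within the upper tier, Stmn1 minus Stmn4 was 0.49, 0.42 and -0.45 in rats 12, 24-4 and 33, and Dpysl2 minus Stmn3 was 0.04, -0.16 and 0.69. Stmn4 minus Dpysl2 was positive throughout but 0.00 and 0.03 in rats 12 and 24-4. Stmn2 stayed above Gap43, by 0.25 ± 0.14.

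No member was called more variable between rats than genes of its level. The fit asked, for each tested gene, whether its variance between rats exceeded that of genes with like expression. It called 0 of 10 members at an adjusted p under 0.05 (limma, Benjamini-Hochberg over all 13754 genes), beside 0.102% of all tested genes (14). The lowest adjusted p of a member was 0.993, and 0 of 10 had an unadjusted p under 0.05, where 820 tested genes did. Across the 9 alternatives the lowest adjusted limma p of a member ran from 0.864 to 0.992. On simulated data the fit missed the smallest shift of 1 rat tried, which was wider than the spread of any member. The lack of a call thus does not show that a member is steady. The median ratio of the highest to the lowest rat was 1.65 over the members, 1.63 over all tested genes and 1.55 over those whose mean FPKM reached 10, so the members' median was near the background. In the values as deposited, Gap43 (1.17), Dpysl2 (1.23) and Stmn2 (1.3) were at the tight end. Stmn3 (2.19), Crmp1 (1.98) and Dpysl3 (1.91) were at the wide end. Both other scalings widen the Gap43 ratio, and the order of the members by ratio was not compared under them.

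**Figure D3:**
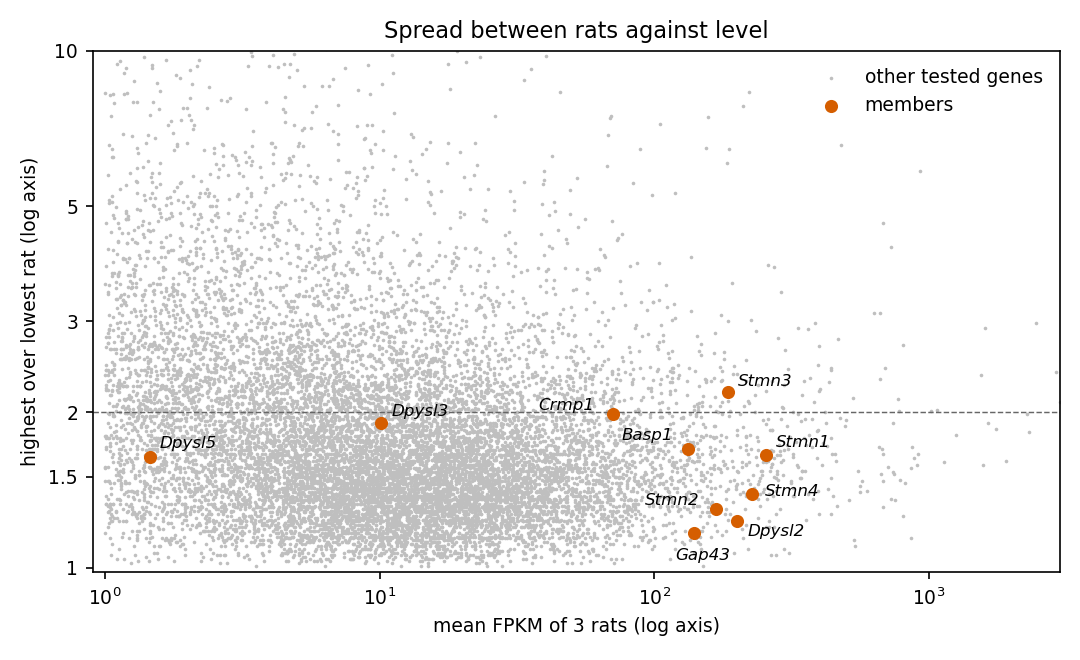
Highest over lowest rat against mean FPKM (both log axes) for the tested genes in grey, with the 10 members in orange. The dashed line marks a ratio of 2, which Stmn3 alone of the members exceeds. A further 181 genes lie outside the axes or have a rat at 0.

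Rat 24-4 had the highest value in 8 of 10 members, where 34.2% of tested genes were highest in that rat. Where the mean FPKM reached 10, it was 7 of 9 members beside 44.5% of genes. The exceptions were Gap43, highest in rat 12, and Stmn4, highest in rat 33. After removal of mitochondrial genes and rescaling, the count was 7 of 10, because Stmn2 became highest in rat 12. The share of all tested genes was not computed for that scaling. The median deviation of the members from their mean over rats was 0.03, 0.28 and -0.17 on the log2 scale in rats 12, 24-4 and 33, and that of all tested genes was -0.06, 0.01 and 0.07.

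The full order of rat 24-4 above rat 12 above rat 33 was shared by 5 members, Stmn1, Stmn2, Stmn3, Basp1 and Crmp1. It held for 17.7% of all tested genes and for 23.7% of those whose mean FPKM reached 10. With 3 rats only 6 orders exist, so a shared order is a coarse description. When values were rescaled by the median ratio, 6 members had this order, and the share of all tested genes was not computed there. Promoter sequences of 4 of the 5 were at hand in RefSeq (build GRCr8, 250 bases before to 50 after the start of the gene) and are shown because these genes had 1 order of rats. Capitals mark GGGCGG or its reverse complement, the GC box that Sp1-family factors bind.

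Stmn1 (chr5:151964929-151965228, plus strand): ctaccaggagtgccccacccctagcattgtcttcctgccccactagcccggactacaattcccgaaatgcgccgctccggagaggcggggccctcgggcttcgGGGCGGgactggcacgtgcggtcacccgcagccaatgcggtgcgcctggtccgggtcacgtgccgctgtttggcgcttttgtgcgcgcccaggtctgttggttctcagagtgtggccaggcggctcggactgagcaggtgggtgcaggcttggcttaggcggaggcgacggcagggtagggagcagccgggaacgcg
Stmn3 (chr3:188802445-188802744, minus strand): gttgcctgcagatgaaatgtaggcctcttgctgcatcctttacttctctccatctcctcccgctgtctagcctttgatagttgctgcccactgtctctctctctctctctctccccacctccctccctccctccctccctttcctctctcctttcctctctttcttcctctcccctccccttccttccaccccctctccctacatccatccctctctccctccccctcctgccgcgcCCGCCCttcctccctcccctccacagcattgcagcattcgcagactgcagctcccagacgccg
Basp1 (chr2:77594248-77594547, minus strand): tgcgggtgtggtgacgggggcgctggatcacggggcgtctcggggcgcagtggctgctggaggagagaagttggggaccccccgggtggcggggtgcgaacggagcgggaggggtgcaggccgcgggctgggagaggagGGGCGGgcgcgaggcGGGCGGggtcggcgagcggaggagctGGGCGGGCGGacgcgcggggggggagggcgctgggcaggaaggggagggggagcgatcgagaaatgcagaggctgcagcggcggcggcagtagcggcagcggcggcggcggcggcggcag
Crmp1 (chr14:77780867-77781166, minus strand): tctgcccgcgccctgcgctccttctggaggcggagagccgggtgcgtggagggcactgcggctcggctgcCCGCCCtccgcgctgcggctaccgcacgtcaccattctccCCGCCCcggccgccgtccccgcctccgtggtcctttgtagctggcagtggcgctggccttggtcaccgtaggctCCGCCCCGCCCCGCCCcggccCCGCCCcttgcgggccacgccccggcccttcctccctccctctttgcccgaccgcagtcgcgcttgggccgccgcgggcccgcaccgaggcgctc

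In total 6 of the 10 members had a promoter entry, with 7 windows because Dpysl3 had 2. All 7 windows held the GC box, against 33.1% of 33469 windows of the same length. The number ran from 1 in Stmn1, Stmn3 and 1 window of Dpysl3 to 6 in Crmp1, counting overlapping matches on both strands. Dpysl5, the lowest member, had 2. GC content was 60.0% in Stmn3, 68.3% in Stmn1, 77.7% in Crmp1 and 78.3% in Basp1, with a median of 51.7% over all windows. The window of Stmn1 alone of the 7 held CACGTG, the E-box, at 2 positions, against 6.42% of all windows with at least 1. CCAAT, the box of NF-Y, stood in 2 of the 7 windows (Stmn1 and Dpysl5) and in 37.5% of all. TATAAA stood in 0 of the 7, against 14.2% of all. Such matches describe letters in these windows, and binding was not measured.

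On the rat genome of the deposited files, Rnor_6.0, Stmn4 and Dpysl2 are close neighbours. Stmn4 spans chromosome 15 from 43007908 to 43025852 on the plus strand, and Dpysl2 from 43477629 to 43542939 on the minus strand, 452 kb away, with 2 listed genes between them. Basp1 (77586424 to 77632628) and Stmn2 (95424251 to 95472115) share chromosome 2 at a distance of 17792 kb. The other members lie on separate chromosomes, Gap43 on 11 (58624198 to 58717914), Stmn1 on 5 (152680407 to 152686806), Stmn3 on 3 (176808017 to 176816162), Crmp1 on 14 (78266931 to 78308933), Dpysl3 on 18 (37716143 to 37819097) and Dpysl5 on 6 (26939697 to 27024129). No other listed gene overlapped the locus of a member on either strand.

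Of 8 neuron markers, 7 were highest in rat 12. Of the members 1 of 10 was, beside 23.8% of all tested genes. The median deviation of the neuron list was 0.67, -0.20 and -0.45 in rats 12, 24-4 and 33. The median of the members minus that of the neuron markers was -0.16, 0.80 and 0.54 on the log2 scale (mean 0.39 ± 0.50, exact sign-flip p = 0.5). The mean was 0.67 without rat 12 and 0.19 without rat 24-4. With list means in place of medians the mean difference was -0.47, so its sign depends on that choice. For single members the difference from the neuron median was lowest in rat 12 in 10 of 10, and this held for 92.2% of all tested genes too. Gap43, for example, lay at -0.27, 0.48 and 0.61 relative to the neuron median, although its own FPKM as deposited fell within a ratio of 1.17.

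**Figure D4:**
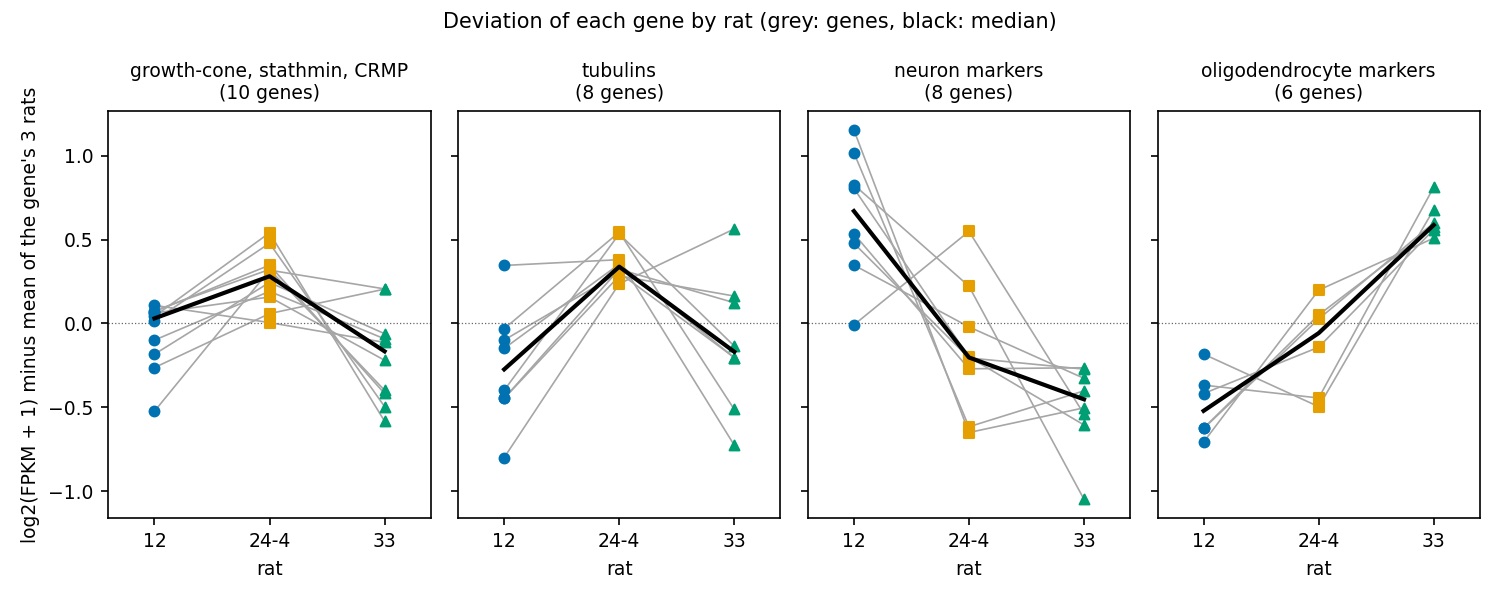
Deviation of each gene from its mean over the 3 rats, in log2(FPKM + 1), for the members, tubulins, neuron markers and oligodendrocyte markers. Grey lines join the values of 1 gene, black lines the medians, and the rats have no order. The members' median is highest in rat 24-4 at 0.28, that of neuron markers in rat 12 at 0.67.

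Tubulins, whose dimers stathmins and CRMPs bind, were highest in rat 24-4 in 7 of 8 genes, where 8 of 10 members were. So were 34.2% of all tested genes and 44.5% of those whose mean FPKM reached 10. The median deviation of the tubulins was -0.27, 0.34 and -0.17. Tubb4a, the highest, had an FPKM of 655, 1087 and 1000.1 in rats 12, 24-4 and 33, and Tubb3, the neuronal isotype, had 207, 309 and 148. Tubb2a, the lowest, had 35.9, 69.4 and 43.3. Tubb2b was the most variable, at 28.9, 60.3 and 75.9, and was the 1 tubulin highest in rat 33. None was called variable by limma.

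Of the enzymes that phosphorylate or dephosphorylate the members, 10 of 11 were highest in rat 12, beside 23.8% of all tested genes, and 0 of 11 were called variable. Of the 11 enzymes, 8 were lowest in rat 33, as were 6 of 10 members and 3969 of the 13754 tested genes. Camk2a, the calcium-dependent kinase of the postsynaptic density, had an FPKM of 604, 578 and 218. Camk4, a calcium-dependent kinase of the nucleus, was the lowest and most variable at 17.8, 7.86 and 2.47 (limma adjusted p = 0.464). The list had a median deviation of 0.44, 0.04 and -0.39, and the neuron markers had 0.67, -0.20 and -0.45.

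Of the route from semaphorin 3A to the CRMPs, 12 of 13 genes were matched, and 0 were called variable. The ligand gene Sema3a was the lowest and had 6.09, 1.93 and 1.27 in rats 12, 24-4 and 33. Nrp1, which encodes its binding receptor, had 6.16, 7.72 and 14.9, the reverse order. Cdk5r1, the activator of the kinase Cdk5, was the highest at 56.8, 54.1 and 27.3. The median level of this list was 4.45 ± 0.10 on the log2 scale, against 7.25 ± 0.27 for the members and 3.48 ± 0.07 for all tested genes.

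Genes related to Gap43 and Basp1 by calmodulin binding or by membrane attachment had a median level of 7.12 ± 0.28, with 4 of 5 matched. Nrgn, a postsynaptic protein that shares the calmodulin-binding motif of GAP-43, had an FPKM of 931, 770.0 and 383. As deposited, its ratio was 2.43 where Gap43 had 1.17. Marcks, a kinase C substrate at the membrane, had 22.9, 19.5 and 39.9. Nrgn and Gap43 were both lowest in rat 33, and Marcks was highest there.

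Genes that mark an injured or regrowing neuron differed widely in level within their lists. Atf3, the transcription factor that axon injury induces, was at 0.10, 0.370 and 0.728 FPKM in rats 12, 24-4 and 33. Sox11, a factor of immature and regrowing neurons, was at 1.65, 0.778 and 1.15. Klf9, a factor that restrains axon growth, was the highest of its list at 55.3, 25.8 and 33.0. Of the 10 transcription factors 9 were tested, and 0 were called variable. Among the effectors Sprr1a was at 0.642, 1.5 and 0.284, Npy was listed at 0 in every rat, and the adhesion gene Ncam1 was the highest at 53.2, 64.1 and 68.8. At the estimated depths, 3 fragments on a gene of 1 kb would give an FPKM of 0.196, 0.174 and 0.231. Atf3 in rat 12 was below that level and Sprr1a in rat 33 just above it. Differences between rats in these 2 genes thus can rest on few fragments. A value of 0 in these files can be a failed estimate. Markers of immature neurons summed to 11.7, 7.46 and 17.6 FPKM over the 6 matched genes, below the value of Gap43 alone in each rat.

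Among the 7068 other genes whose mean FPKM reached 10, those most like Gap43 in their 3 values were Wwc1 (29.6, 27.5 and 25.2), Dcun1d5 (23.8, 22.2 and 20.3) and Tsc1 (13.7, 12.6 and 11.5 in rats 12, 24-4 and 33). Likeness was the largest difference over the 3 rats between values centred on each gene's mean, and it was 0.0034, 0.0034 and 0.0083 on the log2(FPKM + 1) scale. With 3 rats many genes are near by this measure: 306 of the 7068, or 4.33%, lay within 0.1.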

How the data were processed

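Messenger RNA was sequenced from the motor cortex of 3 rats, 1 library each. Per the labels' protocols, RNA integrity was checked, mRNA separated and fragmented, and cDNA libraries made. The authors counted fragments per gene, normalized them and deposited FPKM values, per the series' design text. Per the submitters' processing notes, the tools were HISAT2 (2.0.4) and StringTie (1.3.0) and the genome was Rnor_6.0. The kind of normalization and any use of strand were not given in the sources used here. Since FPKM is a share of the library, an abundant transcript lowers all other values.

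Short loci, up to 400 bp, have values in whole multiples of 1 fragment, which gave the depth: 91.3%, 91.5% and 92.2% of 690, 674 and 715 values came out whole within 0.02. Values were used as log2(FPKM + 1). The test covered genes whose mean FPKM reached 1. In limma 3.58.1 (R 4.3.3) each gene had its mean as the single term, and its variance was set against the prior (trend and robust options, 7.96 degrees of freedom) in a one-sided F test, with Benjamini-Hochberg adjustment over all tested genes. Tested on simulated data, it recovered large shifts of 1 rat and missed the smallest one tried, so the lack of a call does not show that a gene is steady. The 7 gene pairs and the members against 8 neuron markers were compared within rats by an exact sign-flip permutation test. Python 3.11.15 with scipy 1.17.1, pandas 2.3.3, numpy 2.4.6 and matplotlib 3.10.9 served for the rest.

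The members, 6 pathway lists, 11 marker lists, pairs and alternatives were chosen with earlier results of these data known. Of 115 listed genes 111 were matched, 1 of them with more than 1 row (the one of higher mean level served). Named genes were the members, the highest, lowest and most variable gene of each pathway list, Dpysl4, Sema3a, Nrp1, Tubb3, Sox11 and Atf3, and the 3 genes most like Gap43. Shares within families, promoter motifs and the orders of rats were added after values were seen. Protein sequences were not used here, so the planned identity between members was not computed. Alternatives were another pseudocount, prior, filter or scaling and each rat left out.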

Additional observations from a re-analysis of the deposited data

How the results depend on the processing

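The 3 rats carry no replicate structure beyond 1 library each, and pairing across conditions was not possible because there was 1 group. The only pairing was of genes or gene lists within a rat. No member was called variable under any of the 9 alternatives run. The number of all tested genes called variable was 14, and it was 0 without rat 24-4, 104 without rat 12 and 64 without rat 33. It was 23 with a pseudocount of 0.1, 37 with a mean FPKM of at least 10, and 0 with a prior that is not robust, without a filter, or without the mitochondrial genome. In the order of these 8 settings, unadjusted limma p-values under 0.05 were held by 655, 869, 656, 820, 465, 733, 864 and 624 genes, against 863 with 18 calls after rescaling by the median ratio. The count of members with a ratio of at least 2 was 1, ranged from 0 to 1 with a rat left out, and was 2 after that rescaling. With a rat left out, Gap43 minus Basp1 ranged from -0.05 to 0.28 and Stmn3 minus Stmn2 from -0.12 to 0.26. Dpysl2 minus Dpysl5 was 7.04 with a pseudocount of 0.1 and 6.50 without the mitochondrial genome. The median level of the members was 7.25, with 7.59 without the mitochondrial genome and 6.33 as a mean over the list, and members minus neuron markers was -0.47 as a mean over the list. Leaving out the mitochondrial genome shifted the median of all genes by 0.41, 0.20 and 0.31 in rats 12, 24-4 and 33. Of 81 values under alternatives, 63 kept their direction and size class. The cause of the others was not tested. The 63 include differences within a rat, in which a factor common to the whole library nearly cancels. That these kept their values under rescaling was thus largely fixed in advance.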
